A study of Mus musculus with 3 samples.

Results

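The 10 kidney injury and acute-phase genes Havcr1, Lcn2, Clu, Sox9, Saa3, Lrg1, Cp, Slpi, S100a8 and S100a9 were followed through the cell classes of glomerular preparations from lupus-prone and control mice. They were taken by name, and all 10 were found by symbol among the 32285 genes of the files. The MRL/lpr strain carries a mutation of Fas and develops a lupus-like nephritis. The untreated MRL/lpr library came from female mice that had entered the nephritis group at about 16 weeks of age. The treated library came from such mice given 800000 hUC-MSCs, mesenchymal stem cells of human umbilical cord, into a vein, and both were sampled at day 21 after treatment. The control library is labelled only as a blank control, with no strain or age. The study used MRL/MpJ mice as controls in its other mouse experiments but does not name the strain behind this library. Glomeruli were isolated after digestion with collagenase, and the number of mice behind each library is not given in the sources used here. Each condition was 1 library, so that no spread between animals could be estimated and no difference was tested.

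The members are best known as urinary, serum or tissue signs of kidney damage. Havcr1 encodes KIM-1, a phosphatidylserine receptor of injured proximal tubule cells. Lcn2 encodes NGAL, an iron-siderophore carrier that neutrophils store in their granules and that the distal nephron secretes. Clu encodes the extracellular chaperone clusterin, and Sox9 a transcription factor of regenerating epithelium. Saa3, Lrg1 and Cp encode serum amyloid A3, leucine-rich alpha-2-glycoprotein and the copper ferroxidase ceruloplasmin, which belong to the acute-phase response that interleukin-6 family and interleukin-1 signals drive through STAT3, C/EBP and NF-kB factors. Slpi encodes an inhibitor of neutrophil elastase. S100a8 and S100a9 encode the subunits of calprotectin, the most abundant cytosolic protein of neutrophils.

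All 10 are protein-coding genes in the GENCODE annotation of GRCm38. S100a8 (chr3:90668978-90670035, plus strand) and S100a9 (chr3:90692632-90695721, minus strand) lie near each other. Lcn2 is at chr2:32384633-32388252 and Slpi at chr2:164354070-164389095, both on the minus strand, as are Saa3 at chr7:46711998-46715700 and Lrg1 at chr17:56119678-56122001. On the plus strand Cp is at chr3:19957054-20009145, Clu at chr14:65968483-65981547, Havcr1 at chr11:46735080-46779578 and Sox9 at chr11:112782224-112787760.

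Because acute-phase genes are textbook targets of C/EBP and STAT3 factors, the promoters of the 10 genes were read from RefSeq on GRCm38.p6, from 250 bases before to 50 after the annotated start. Promoters were found for 8 of the 10 genes. The 5 members that were high in myeloid cells are shown with Lrg1, which was high in endothelial-like cells and neutrophils. The promoter of S100a8 lies on the plus strand at chr3:90668821-90669120. Those on the minus strand are S100a9 at chr3:90695672-90695971, Saa3 at chr7:46715627-46715926, Slpi at chr2:164356458-164356757, Lcn2 at chr2:32387690-32387989 and Lrg1 at chr17:56121897-56122196. Capitals mark matches on either strand to the C/EBP core TTNNGNAA or to the TATA box TATAAA, read 5′ to 3′ on the strand of the gene.
S100a8: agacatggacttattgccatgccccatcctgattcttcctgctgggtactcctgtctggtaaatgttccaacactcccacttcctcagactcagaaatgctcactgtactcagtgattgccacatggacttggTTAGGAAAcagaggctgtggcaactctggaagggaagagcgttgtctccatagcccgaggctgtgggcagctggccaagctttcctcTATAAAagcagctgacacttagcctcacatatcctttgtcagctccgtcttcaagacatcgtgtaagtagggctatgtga
S100a9: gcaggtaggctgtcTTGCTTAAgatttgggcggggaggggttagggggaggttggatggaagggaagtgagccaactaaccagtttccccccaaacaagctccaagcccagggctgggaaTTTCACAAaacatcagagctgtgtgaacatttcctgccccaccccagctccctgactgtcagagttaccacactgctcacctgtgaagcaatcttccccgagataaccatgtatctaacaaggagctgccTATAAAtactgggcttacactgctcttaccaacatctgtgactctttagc
Saa3: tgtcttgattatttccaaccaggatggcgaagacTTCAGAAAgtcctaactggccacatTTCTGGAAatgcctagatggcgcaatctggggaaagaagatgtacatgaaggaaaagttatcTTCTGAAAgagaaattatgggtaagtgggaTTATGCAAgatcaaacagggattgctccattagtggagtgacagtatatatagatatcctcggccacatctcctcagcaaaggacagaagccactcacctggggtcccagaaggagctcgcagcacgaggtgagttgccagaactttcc
Slpi: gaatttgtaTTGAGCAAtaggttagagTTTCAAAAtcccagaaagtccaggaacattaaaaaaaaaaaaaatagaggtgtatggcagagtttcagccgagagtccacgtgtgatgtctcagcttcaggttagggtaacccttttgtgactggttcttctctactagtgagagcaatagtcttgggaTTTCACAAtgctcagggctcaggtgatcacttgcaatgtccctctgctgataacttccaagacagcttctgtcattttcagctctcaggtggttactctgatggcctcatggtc
Lcn2: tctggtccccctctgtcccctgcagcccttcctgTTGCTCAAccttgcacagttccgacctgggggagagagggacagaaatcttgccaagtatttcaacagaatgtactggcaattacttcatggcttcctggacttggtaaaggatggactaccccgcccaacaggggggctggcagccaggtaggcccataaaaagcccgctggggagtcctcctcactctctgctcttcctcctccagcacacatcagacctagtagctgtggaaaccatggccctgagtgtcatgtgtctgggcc
Lrg1: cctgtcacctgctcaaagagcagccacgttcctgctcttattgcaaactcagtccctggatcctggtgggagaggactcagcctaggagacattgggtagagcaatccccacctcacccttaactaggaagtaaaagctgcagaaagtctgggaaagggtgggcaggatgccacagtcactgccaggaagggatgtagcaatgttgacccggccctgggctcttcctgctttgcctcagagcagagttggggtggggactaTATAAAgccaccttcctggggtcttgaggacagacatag
The C/EBP letters stood in at least 1 promoter of 7 of the 8 genes, with 4 matches in Saa3, 3 in Slpi, 2 in S100a9 and 1 each in S100a8 and Lcn2. By promoter they stood in 8 of 11, and they are loose letters, held by 40.7% of the 32851 promoters of the same length. The STAT letters TTCNNNGAA, held by 8.30% of all promoters, were in none of these windows, and the AP-1 letters TGANTCA, held by 7.81%, were in those of 2 genes, Cp and Havcr1. A TATA box, in 13.6% of all promoters, was in those of 4 genes. C/EBP and TATA matches do not overlap in the lines shown. Such matches describe letters and not binding.

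Levels are given in CPM, the unique molecular identifiers (UMIs, each a captured transcript) of a gene summed over a class per 1000000 UMIs of that class, with exact 95% Poisson intervals that cover counting error only. The libraries held 94903163 UMIs in control, 103319588 in MRL/lpr and 90812138 in treated mice. Barcodes with at least 500 UMIs and at most 20% mitochondrial UMIs were kept, and after predicted doublets were removed 11049, 17317 and 20688 cells remained, with medians of 4774, 2933 and 1994 UMIs. The libraries shared 58, 61 and 106 barcodes pairwise, where 32.1, 38.4 and 60.2 would be shared if drawn at random. Cells were clustered without the members and named from marker genes as tubule-like (383, 4908 and 856 cells), podocyte-like (2402, 838 and 165), endothelial-like (6112, 4196 and 5454), stromal-like (1193, 2425 and 4183), macrophage- and monocyte-like (152, 2772 and 8437) and neutrophil-like (35, 344 and 247). In these classes each of the class's own markers had at least 1 UMI, except 1 of 18 stromal markers in control. So low a bar is no test of the labels. By the rule that named them, clusters carried from 5 of 13 markers in proximal tubule-like c6 to 13 of 13 in proximal tubule-like c5. No dendritic class formed, and clusters that kept no name held 1.34%, 2.43% and 1.53% of cells. Most of these were of cluster c20 (141, 328 and 290 cells), which carried 10 of 10 podocyte markers at a median of 826 UMIs. It was left unnamed for low depth and no marker among its leading genes, so the podocyte-like class leaves its cells out. The tubule-like class joined proximal tubule-like clusters (166, 4316 and 572 cells, with medians of 4787.5, 871.5 and 1222.5 UMIs) and 1 cluster with distal tubule and collecting duct markers (217, 592 and 284 cells, with medians of 9423, 4721.5 and 2664 UMIs).

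Tissue digestion frees RNA that enters every droplet, so each level was set beside the level that free RNA would give. The free RNA was read from droplets of 1 to 100 UMIs, and its share in a class from markers of the other classes. That share was 2.78% to 10.4% in the podocyte-, endothelial-, stromal-, macrophage- and tubule-like classes of control, and 56.1% in tubule-like cells of MRL/lpr mice. In treated mice it was 41.0% in tubule-like cells and 31.5% in stromal-like cells. S100a9 stood at 121, 848 and 945 CPM in the droplets of 1 to 100 UMIs of control, MRL/lpr and treated mice, and S100a8 at 85.6, 447 and 556. In the plot of measured against expected levels, S100a8 and S100a9 lay below the line in podocyte-, endothelial-, stromal- and tubule-like cells, while each of the other members lay above it in at least 1 class.

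**Figure D1:**
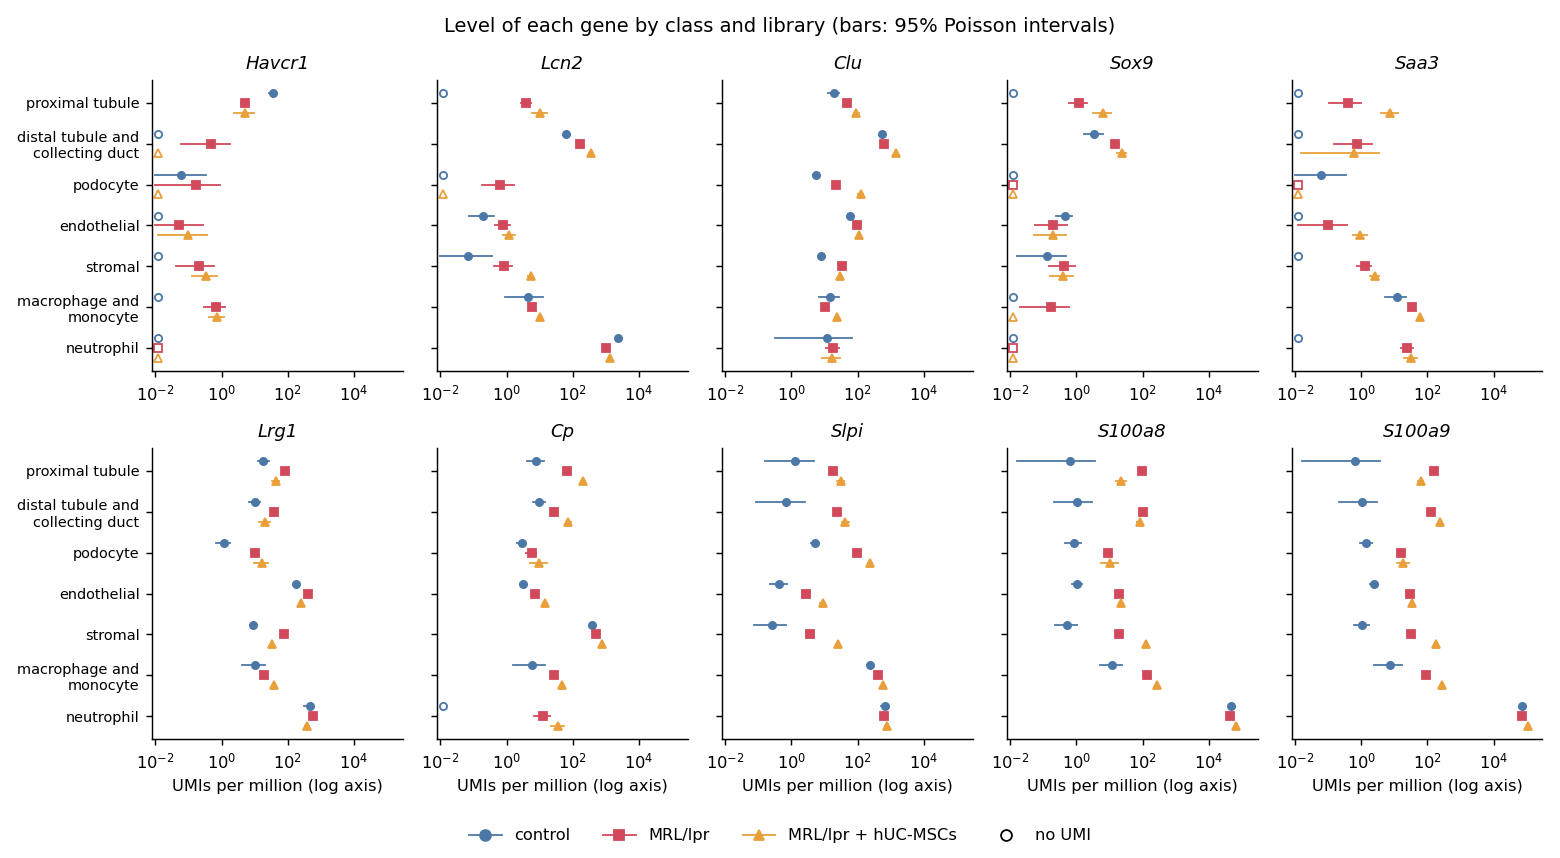
Level of each gene in CPM (log axis) in 7 classes of the 3 libraries, with 95% Poisson intervals drawn down to 0.01 and open symbols where no UMI was counted. S100a8 and S100a9 reach their highest levels in neutrophil-like cells, Cp in stromal-like cells and Havcr1 in proximal tubule-like cells of every library.

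**Figure D2:**
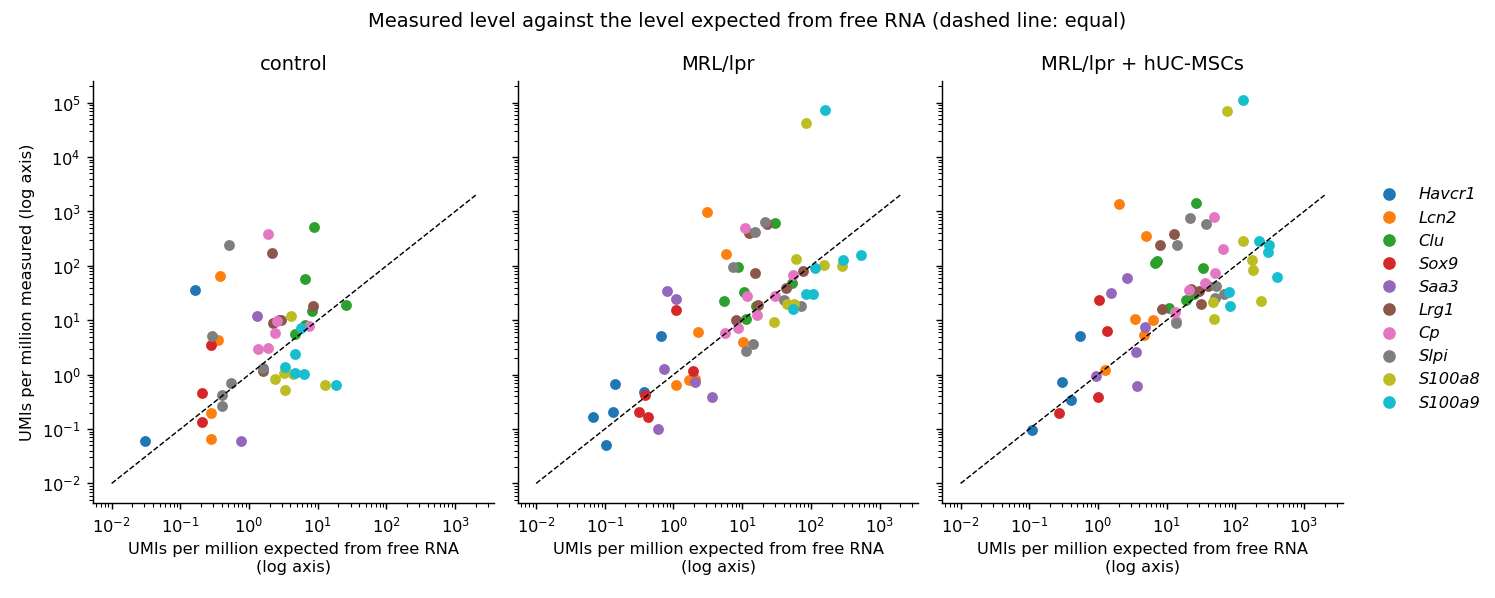
Measured level against the level expected from free RNA, both in CPM on log axes, for each gene and each of 7 classes with a UMI, 1 panel per library. Neutrophil-like cells of control are not drawn because their free-RNA share was 0. Points on the dashed line have the level that free RNA alone would give.

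Havcr1 was a proximal tubule transcript that few cells carried. It stood at 35.4 CPM (26.6 to 46.2) in proximal tubule-like cells of control, 5.21 (3.90 to 6.81) in MRL/lpr mice and 5.13 (2.34 to 9.73) in treated mice, from 54, 53 and 9 UMIs. Control was thus the highest library and the others lay close together, with a log2 ratio of -2.76 (-3.34 to -2.19) for MRL/lpr over control. Only 10 of 166 control cells held the gene, and 3 of them held 50% or more of its UMIs. The shares of cells with a UMI were 6.02%, 0.788% and 0.874%, but the MRL/lpr cells were far shallower, and with every cell thinned to 500 UMIs the shares were 0%, 0.232% and 0.175%. Most proximal tubule-like cells of MRL/lpr mice (3272 of 4316) belonged to cluster c6, with Kap and Gpx3 among its leading genes and with a median of 737 UMIs, whereas cluster c5, led by Miox and Keg1, held most of those of control. Within c5 alone Havcr1 stood at 36.6, 7.36 and 6.29 CPM. In MRL/lpr mice the 34 proximal tubule-like cells with a Havcr1 UMI had a median of 8355.5 UMIs against 864.5 in the rest, and with each cell thinned to 500 UMIs they carried 13412 against 455 CPM of Kap and 2294 against 247 CPM of Slc27a2, proximal tubule markers. With 200 to 3000 genes per cell, the limits of the study, the tubule-wide log2 ratio of Havcr1 turned from -1.68 to 1.72.

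Lcn2 was found in neutrophils and in the distal nephron. In neutrophil-like cells it stood at 2288 CPM (1971 to 2642) in control, 988 (929 to 1050.1) in MRL/lpr mice and 1388 (1299 to 1481) in treated mice. Control was the highest, with a log2 ratio of -1.21 (-1.44 to -0.98) for MRL/lpr over control. However, 3 of the 35 control cells held 90.3% of its Lcn2 UMIs. Those 3 cells also held Camp at 45686 and Ngp at 41879 CPM, granule genes of immature neutrophils, which stood at 0 and 15.6 in the other 32. Without cells of 10 or more Lcn2 UMIs, a limit chosen after the counts were seen, the levels were 280.3, 390.3 and 687 and the log2 ratio was 0.48 (-0.20 to 1.25). This limit too is set on the gene itself. The cells with 10 or more Lcn2 UMIs carried Camp in the MRL/lpr library too, at 6899 against 4.50 CPM in the rest.

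In the cluster with distal tubule and collecting duct markers, Lcn2 stood at 63.8 (54.9 to 73.8), 164 (152 to 177) and 349 (321 to 379) CPM in control, MRL/lpr and treated mice. The levels did not overlap and were highest in the treated library, with log2 ratios of 1.36 (1.13 to 1.61) for MRL/lpr over control and 1.09 (0.93 to 1.25) for treated over untreated. Each was at least 28.0 times its free-RNA level. Few cells carried most of it, since 3 of 217, 17 of 592 and 22 of 284 cells had 10 or more Lcn2 UMIs and held 30.6%, 63.2% and 68.3% of them. With every cell thinned to 500 UMIs, 4.61%, 5.57% and 9.86% of the cells held an Lcn2 UMI. The cells with an Lcn2 UMI had medians of 11026, 8127 and 6197 UMIs, against 8909, 3056 and 2064 in the rest. Thinned to equal depth they held more Aqp2, the vasopressin-regulated water channel of principal cells, by 1.38, 3.07 and 2.63 on the log2 scale in the 3 libraries. They held less Atp6v1g3, a proton pump subunit of intercalated cells, with log2 ratios of -2.57, -2.42 and -1.92. In proximal tubule-like cells Lcn2 had no UMI in control and stood at 3.93 and 10.3 CPM in MRL/lpr and treated mice, 0.377 and 1.60 times its free-RNA level.

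Clu was highest in the same distal cluster. Its level was 528 (502 to 556), 610.3 (587 to 635) and 1444 (1386 to 1503) CPM in control, MRL/lpr and treated mice. The first 2 libraries lay close together and the treated library was apart, with log2 ratios of 0.21 (0.12 to 0.30) and 1.24 (1.16 to 1.32). Cells with 10 or more Clu UMIs numbered 42 of 217, 85 of 592 and 51 of 284 and held 76.7%, 75.9% and 74.5% of them. In treated mice 1 cell held 259 of the 2360 UMIs. The MRL/lpr cells with a Clu UMI had a median of 7779 UMIs against 1803 in the rest. Thinned to equal depth they held more Slc12a3 and Pvalb, markers of the distal convoluted tubule, by 3.38 and 2.37 on the log2 scale. In podocyte-like cells Clu was low but ordered, at 5.52 (4.45 to 6.78), 22.5 (18.9 to 26.6) and 124 (105 to 145) CPM, which was 1.17, 4.08 and 17.4 times the free-RNA level. Both steps passed 2-fold, with log2 ratios of 2.03 (1.64 to 2.43) and 2.46 (2.12 to 2.80). In endothelial-like cells Clu stood at 58.3, 96.7 and 113 CPM, log2 ratios of 0.73 (0.64 to 0.82) and 0.22 (0.14 to 0.31), both under 2-fold.

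Sox9 was rare, with 10, 63 and 39 UMIs in the distal cluster. Its level there was 3.49 (1.67 to 6.41), 15.2 (11.7 to 19.4) and 23.9 (16.97 to 32.6) CPM in control, MRL/lpr and treated mice. Control was the lowest, with a log2 ratio of 2.12 (1.15 to 3.25) for MRL/lpr over control, and the interval of treated over untreated, 0.65 (0.04 to 1.25), nearly reached 0. In treated mice 1 of the 284 cells held 10 of the 39 UMIs, or 25.6%. The 34 MRL/lpr cells with a Sox9 UMI had a median of 11927 UMIs against 4108.5 in the rest. They held more Slc12a3 at equal depth, by 2.92 on the log2 scale, and less Aqp2, by -3.09. Lcn2 and Sox9 thus marked distal cells with opposite Aqp2 levels in that library. In podocyte-like and neutrophil-like cells Sox9 had no UMI in any library.

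Saa3 UMIs lay mostly in macrophage- and monocyte-like cells, which held 88.1% of its UMIs in cells of MRL/lpr mice and 91.9% in those of treated mice. Its level in that class was 11.8 (5.08 to 23.2), 33.9 (30.7 to 37.3) and 60.9 (57.6 to 64.4) CPM in control, MRL/lpr and treated mice. All 8 control UMIs came from 1 cell. The class changed its makeup, since c12 and c13 held most of it in control and MRL/lpr mice and c16, a shallow cluster with Trem2 and Fabp5 among its leading genes and with a median of 864.5 UMIs, held the largest number in treated mice. In c13, led by F13a1, Ccr2 and Ly6c2, genes of classical monocytes, Saa3 stood at 0, 89.1 and 105 CPM. The log2 ratio there was at least 2.99 for MRL/lpr over control, set against 3 UMIs over the cluster, and 0.24 (0.04 to 0.44) for treated over untreated. In c12, with Cd300e and Il10 among its leading genes, it was 25.9, 21.4 and 77.5, a log2 ratio of 1.86 (1.52 to 2.21) for treated over untreated. The cells of the class with a Saa3 UMI had medians of 6013.5 and 3702.5 UMIs in MRL/lpr and treated mice, against 3651.5 and 1488 in the rest. At equal depth they held more Slpi, by 1.73 in MRL/lpr and 1.52 in treated mice on the log2 scale, and more S100a8, by 2.84 and 1.14. Neutrophil-like cells of MRL/lpr mice held Saa3 at 24.7 CPM, from 26 UMIs, against 33.9 in macrophage- and monocyte-like cells. Outside the myeloid classes Saa3 exceeded free RNA only in stromal-like cells of MRL/lpr mice, where 18 UMIs were counted and 1 cell held 15.

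Lrg1 had most of its UMIs in endothelial-like cells (70.5% to 95.1% of those in cells), though its level was higher in neutrophil-like cells of each library. With an order-of-magnitude UMI threshold it was instead highest in endothelial-like cells of MRL/lpr and treated mice, at 400.7 and 239.8 CPM. Without that threshold Lrg1 stood in endothelial-like cells at 173 (169 to 178) CPM in control, 402 (393 to 411) in MRL/lpr mice and 245 (238 to 252) in treated mice. These levels were 79.1, 32.1 and 30.4 times the free-RNA level. MRL/lpr was the highest and treated mice lay between, with log2 ratios of 1.21 (1.16 to 1.26) and -0.71 (-0.77 to -0.66). Control cells were mostly of cluster c7, MRL/lpr cells of c8 and treated cells of c10 and c11, but the order of the libraries was the same in all 5 endothelial-like clusters. Their log2 ratios were 1.24 to 1.81 for MRL/lpr over control, each past 2-fold, and -0.79 to -0.42 for treated over untreated, each under 2-fold. With every cell thinned to 500 UMIs, 7.80%, 17.2% and 11.6% of endothelial-like cells held an Lrg1 UMI, against 0.167%, 1.19% and 0.606% of podocyte-like cells.

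The same order was seen in stromal-like cells at a lower level. Lrg1 stood there at 8.85 (7.41 to 10.5), 74.5 (70.1 to 79.1) and 34.1 (31.5 to 37.0) CPM, with log2 ratios of 3.07 (2.81 to 3.34) and -1.13 (-1.27 to -0.98). In treated mice this was 1.13 times the free-RNA level, against 4.81 times in MRL/lpr mice. It was most abundant in stromal-like cluster c2, led by Il6, Tnc and Cxcl13, at 57.7, 223 and 111 CPM. Neutrophil-like cells held Lrg1 at 455, 593 and 382, and their log2 ratios, 0.38 (-0.10 to 0.90) and -0.64 (-0.85 to -0.42), were under 2-fold. In tubule-like cells of the MRL/lpr libraries Lrg1 was at 0.98 and 0.821 times free RNA, so it was not above free RNA in either.

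Cp was the stromal member and was ordered by library. In stromal-like cells it stood at 381 (371 to 391), 504 (493 to 516) and 795 (782 to 808) CPM in control, MRL/lpr and treated mice, and these cells held 83.6% to 96.6% of its UMIs in cells. The steps, 0.40 (0.35 to 0.46) and 0.66 (0.62 to 0.70) on the log2 scale, were both under 2-fold. They ran the same way in each of the 4 stromal-like clusters with at least 20 cells of every library, at 0.50 to 1.21 and 0.14 to 0.77. In c2 the interval of treated over untreated took in 0, at 0.14 (-0.13 to 0.41). Stromal-like cells were most often of c3 in control, c0 in MRL/lpr and c17 in treated mice, and in c3 the level was 399, 637 and 1083. In proximal tubule-like cells Cp stood at 7.86, 68.3 and 208 CPM, which was 1.06, 1.26 and 3.13 times free RNA, and only the treated library was well above it.

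**Figure D3:**
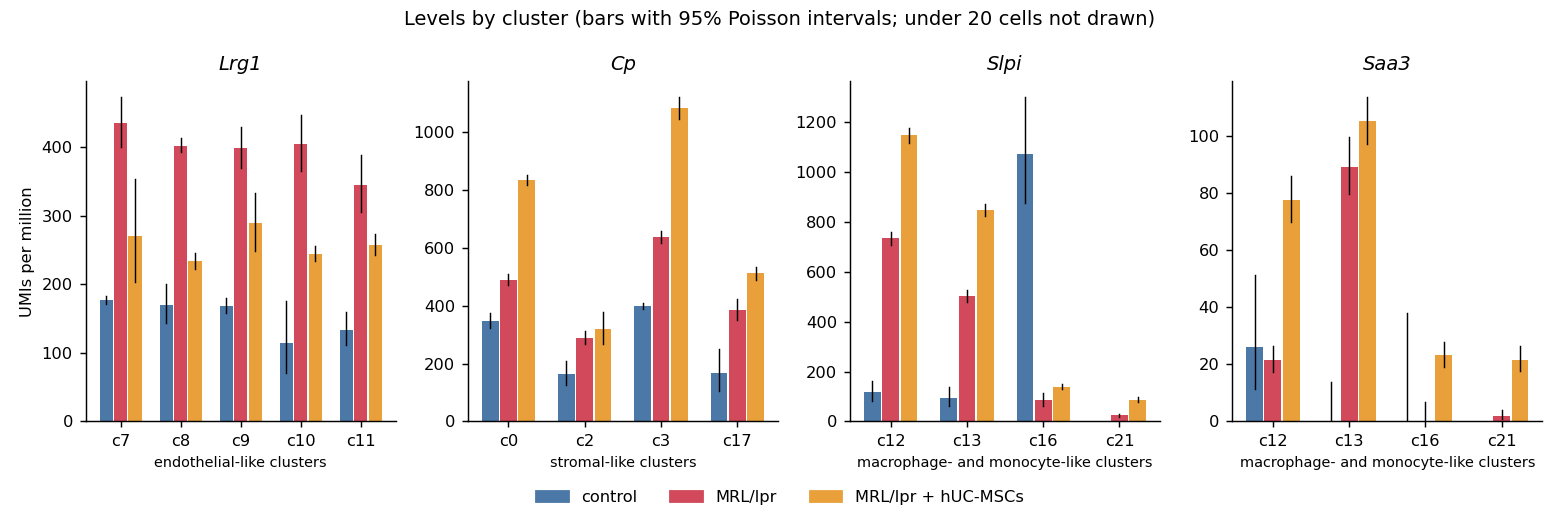
Levels in CPM by cluster for Lrg1 in endothelial-like, Cp in stromal-like and Slpi and Saa3 in macrophage- and monocyte-like clusters, with 95% Poisson intervals and clusters under 20 cells of a library left out. Lrg1 is highest in MRL/lpr mice in all 5 clusters, and the tall control bar of Slpi in c16 comes from 23 cells.

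Slpi was shared by neutrophils, macrophages and monocytes. In neutrophil-like cells it stood at 664 (499 to 867), 633 (586 to 683) and 751 (686 to 820.4) CPM, and all 3 libraries lay close together. In macrophage- and monocyte-like cells it stood at 243 (207 to 283), 411 (399.9 to 423) and 587 (576 to 597), with log2 ratios of 0.76 (0.54 to 0.99) and 0.51 (0.46 to 0.56). In the control library 1 cell of c16 held 99 of the 165 UMIs. In c12 the levels were 117, 734 and 1148 CPM, a log2 ratio of 2.65 (2.18 to 3.17), and in c13 they were 93.7, 504 and 848, a log2 ratio of 2.43 (1.86 to 3.06) for MRL/lpr over control. In c16 Slpi stood at 1073, 84.2 and 139.6 CPM, lower in MRL/lpr mice than in control at a log2 ratio of -3.67 (-4.21 to -3.16), with 99 of the 104 control UMIs in that 1 cell. In c21, led by Fcna and C1qc, it stood at 24.1 and 87.6.

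Podocyte-like cells also held Slpi, at 5.04 (4.01 to 6.25), 97.3 (89.7 to 105) and 237 (211 to 266) CPM in control, MRL/lpr and treated mice. The levels did not overlap and were 17.2, 13.1 and 16.8 times free RNA, with log2 ratios of 4.27 (3.94 to 4.62) and 1.28 (1.08 to 1.49). Few cells carried most of it. Cells with 10 or more Slpi UMIs numbered 1, 12 and 6 and held 30, 361 and 240 of 83, 596 and 294 UMIs. In those cells the podocyte markers summed to 17528, 29971 and 24946 CPM, the neutrophil markers to 0, 0 and 23.0, and the macrophage and monocyte markers to 0, 70.2 and 115. Without them, a limit chosen after the counts were seen, Slpi stood at 3.22, 38.9 and 45.1, with log2 ratios of 3.60 (3.16 to 4.05) and 0.21 (-0.24 to 0.65). The limit is set on Slpi itself, so it takes more from the libraries where Slpi is higher, and both ratios were smaller without these cells. In tubule-, endothelial- and stromal-like cells Slpi was not above free RNA in any library.

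S100a8 and S100a9 were almost confined to neutrophil-like cells. S100a8 stood there at 46831 (45355 to 48343), 42898 (42503 to 43295) and 69241 (68603 to 69884) CPM in control, MRL/lpr and treated mice. S100a9 stood at 70056 (68248 to 71900), 73372 (72855 to 73891) and 111113 (110304 to 111926). Control and MRL/lpr mice lay close together and the treated library was higher by 0.69 (0.67 to 0.71) and 0.60 (0.58 to 0.61) on the log2 scale, under 2-fold. However, 2 of the 35 control cells held 50% or more of its S100a8 UMIs and 3 those of S100a9. With an order-of-magnitude UMI threshold S100a8 stood at 67024, 36112.5 and 50223 CPM, with control the highest. S100a9 then stood at 74976, 58575 and 78651. These cells held 80.9% to 91.9% of the S100a8 UMIs in cells and 82.9% to 94.1% of those of S100a9. In podocyte-, endothelial-, stromal- and tubule-like cells both genes lay below the free-RNA level in every library, at 0.0725 to 0.731 of it, although S100a9 was counted in as many as 18.6% of treated stromal-like cells.

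The proportion of the pair was read next. S100a8 made up 40.1%, 36.9% and 38.4% of the UMIs of both genes in neutrophil-like cells of control, MRL/lpr and treated mice, and 41.4%, 34.5% and 37.0% in droplets of 1 to 100 UMIs. In podocyte-, endothelial- and stromal-like cells the shares were 30.8% to 41.8%, and in treated tubule-like cells the share was 25.7% (22.5% to 29.1%). In MRL/lpr mice it was 39.9% (38.3% to 41.5%) in tubule-like cells and 44.8% (41.6% to 47.9%) in the distal cluster. The share was higher in the macrophage- and monocyte-like class of MRL/lpr mice, at 59.5% (57.6% to 61.3%), and 49.9% (49.0% to 50.9%) in that of treated mice. By cluster, in MRL/lpr mice it was 79.3% (77.0% to 81.5%) in monocyte cluster c13, 47.3% (43.5% to 51.0%) in c12, 39.0% in c21 and 36.6% in c16. In treated mice it was 65.5% (63.6% to 67.4%) in c13 and 63.2% (60.5% to 65.9%) in c12, 56.7% in c21 and 42.5% (41.4% to 43.6%) in c16. The S100a8 of c13 and c12 thus differed in its proportion to S100a9 from that of neutrophils and of free RNA in the same library. That of c21 and c16 differed too in treated mice, but in MRL/lpr mice their intervals took in the neutrophil share. A differing proportion was not particular to these clusters. The intervals of tubule-like cells of both MRL/lpr libraries and of treated stromal-like cells, at 41.8% (40.5% to 43.2%), also left out both shares. In those cells both genes lay below free RNA. S100a8 was 2.20 and 2.18 times its free-RNA level in macrophage- and monocyte-like cells of MRL/lpr and treated mice. In treated mice the shallow c16 held 3228 of the 5780 S100a8 UMIs and 4364 of the 5794 S100a9 UMIs of the class. The free-RNA share was read for the whole class and not by cluster, so these values do not say which clusters lay above free RNA.

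**Figure D4:**
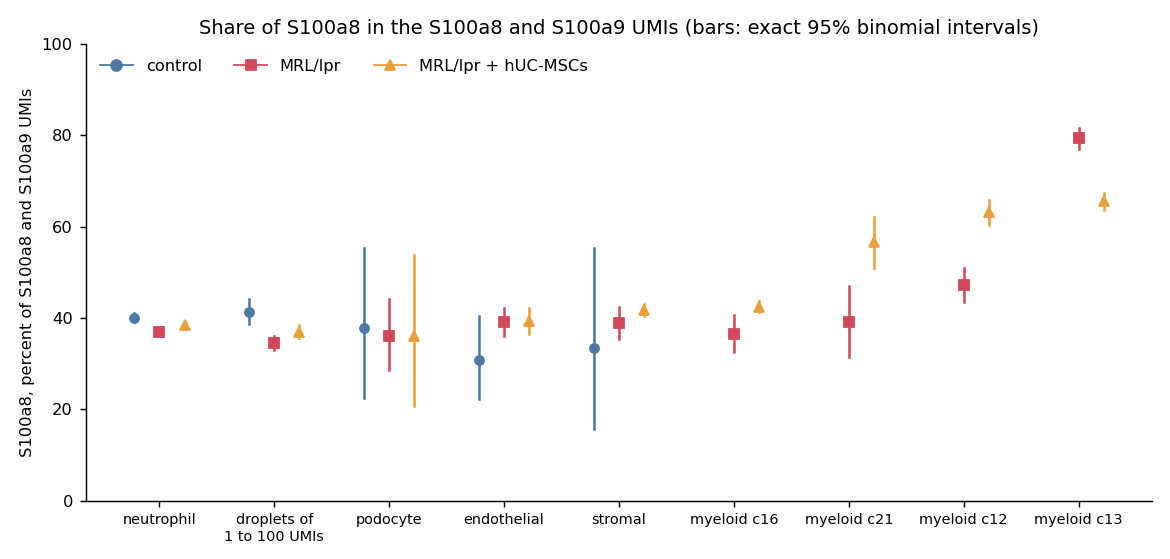
S100a8 as a percent of the UMIs of S100a8 and S100a9 in classes, in droplets of 1 to 100 UMIs and in macrophage- and monocyte-like clusters with at least 20 UMIs of the pair, with exact 95% binomial intervals. Neutrophils, empty droplets, podocytes, endothelial and stromal cells lie between 30.8% and 41.8%, and clusters c12 and c13 reach 47.3% to 79.3%. Clusters c16 and c21 lie between 36.6% and 56.7%. Tubule-like cells are not drawn.

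Across the 6 classes, a member was counted as higher or lower between libraries where the ratio was at least 2-fold, at least 20 UMIs were counted over both and the counting interval left out 1. Of 43 pairs of a member and a class with enough UMIs, 26 were higher and 2 lower in MRL/lpr mice than in control, where 11.2% and 5.54% of all gene and class pairs were called. The tubule-like class was 166 of 383 proximal cells in control and 4316 of 4908 in MRL/lpr mice, so its members' ratios also carry that makeup. Within macrophage- and monocyte-like clusters with at least 20 cells in each library and 20 UMIs, Cp was higher in 0 of 3, Saa3 in 1 of 2 and S100a8 in 3 of 3, and within such stromal-like clusters Clu was higher in 2 of 4 and Lrg1 in 4 of 4. Of those 26, 10 had a level in MRL/lpr mice above free RNA. They were Sox9 and Cp in tubule-like, Clu and Slpi in podocyte-like, Lrg1 in endothelial-like, Clu and Lrg1 in stromal-like, and Saa3, Cp and S100a8 in macrophage- and monocyte-like cells. Other genes were not set against free RNA, so this count has no share over all genes beside it. The direction of Sox9 turned, to -0.77, with 200 to 3000 genes per cell.

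By class, the members higher in MRL/lpr mice were 6 of 9 in tubule-like cells (18.7% of all genes), 5 of 6 in podocyte-like (8.53%), 6 of 7 in endothelial-like (10.3%), 5 of 6 in stromal-like (14.1%), 4 of 8 in macrophage- and monocyte-like (6.09%) and 0 of 7 in neutrophil-like cells (4.01%). Members lower in MRL/lpr mice were Havcr1 in tubule-like cells, where 4.92% of all genes were lower, and Lcn2 in neutrophil-like cells, where 7.04% were. None was lower in podocyte-, endothelial-, stromal- or macrophage- and monocyte-like cells, where 5.59%, 5.66%, 4.9% and 6.13% of all genes were. In the neutrophil-like cells, which held most S100a8 and S100a9 UMIs, 0 of 7 members called higher is close to the share of all genes, 4.01%. Control held only 35 of these cells.

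Of 49 pairs, 18 were higher and 2 lower in treated than in untreated MRL/lpr mice, where 5.41% and 3.33% of all pairs were. Of the 18, the level in treated mice was above free RNA in 10, which were Lcn2, Clu, Sox9 and Cp in tubule-like, Clu and Slpi in podocyte-like, Clu, S100a8 and S100a9 in macrophage- and monocyte-like, and Cp in neutrophil-like cells. This count too has no share over all genes beside it. By class, 5 of 10 members were higher in tubule-like cells (3.54% of all genes), 2 of 6 in podocyte-like (4.99%), 2 of 8 in endothelial-like (5.92%), 5 of 8 in stromal-like (5.58%), 3 of 9 in macrophage- and monocyte-like (8.71%) and 1 of 8 in neutrophil-like cells (1.36%). The tubule-like class went from 4316 of 4908 proximal cells to 572 of 856, and within the distal cluster the log2 ratios of Lcn2, Clu, Cp and Sox9 were 1.09, 1.24, 1.39 and 0.65. That cluster is itself mixed, with Aqp2, Umod and Slc12a1 among its leading genes. Its makeup by segment was not compared between libraries. The macrophage- and monocyte-like class went from 433 of 2772 to 4086 of 8437 cells in c16. Within its 4 clusters Clu and S100a9 were higher in 0 and S100a8 in 1. The 2 lower pairs were Lrg1 in tubule-like cells, where 2.67% of all genes were lower, and in stromal-like cells, where 4.37% were. None was lower in podocyte-, endothelial-, macrophage- and monocyte- or neutrophil-like cells (1.74%, 3.96%, 2.98% and 4.41% of all genes). Both comparisons use the untreated MRL/lpr library, so their ratios are not independent.

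**Figure D5:**
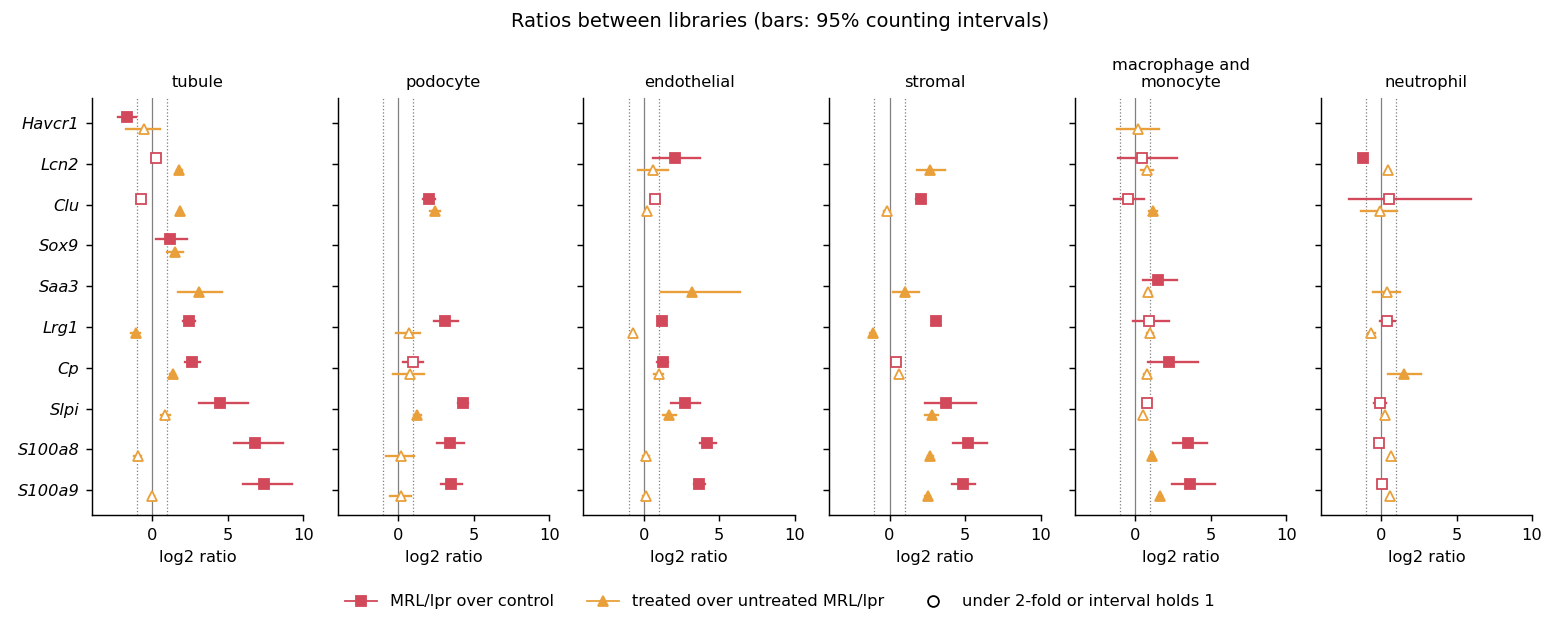
Log2 ratio of each gene in 6 classes for MRL/lpr over control and treated over untreated MRL/lpr mice, with 95% counting intervals, for genes with 20 or more UMIs in the 2 libraries together and a UMI in each. Filled symbols are at least 2-fold with an interval that leaves out 1, open symbols are not, and dotted lines mark 2-fold.

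Other genes of the same kinds were read from lists. Of 17 other tubule injury genes with enough UMIs in tubule-like cells, 12 were higher and 2 lower in MRL/lpr mice than in control, where 18.7% and 4.92% of all genes were, with a median log2 ratio of 1.60 against 0.18 over all genes. The highest were Cd44, a hyaluronan receptor, at 6.54 (4.05 to 11.85) with 1 control UMI, and Vcam1, an adhesion molecule, at 5.52, and the lowest were Lgals3 and Gdf15 at -1.79 and -1.03. In the MRL/lpr library these tubule-like cells carried 56.1% free RNA, and 5 of 10 dissociation stress genes were higher in them, with a median of 0.81. Their part in the result was not tested. In endothelial-like cells 9 of 17 were higher and none lower, beside 10.3% and 5.66% of all genes, with a median of 1.3 against 0.03 over all genes. Vcam1 was at 4.53 and Spp1, also a leading gene of proximal tubule-like c6, at 3.28. In these endothelial-like cells the free-RNA share was 3.82% in control and 10.1% in MRL/lpr mice, and the proximal tubule markers summed to 36.3 and 204 CPM. Their part in the result was not tested.

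Of the other acute-phase and secreted defence genes, 6 of 12 were higher and 1 lower in stromal-like cells of MRL/lpr mice, beside 14.1% and 4.9% of all genes, with a median of 1.00 against 0.05 over all genes. Wfdc17, a macrophage-expressed relative of Slpi, and C3, the central complement protein, were at 9.90 (7.42 to 15.21) and 8.55 (6.06 to 13.86), each with 1 control UMI, and Steap4 was lowest at -1.39. In the stromal-like cells of control, MRL/lpr and treated mice the free-RNA share was 3.86%, 12.5% and 31.5% and the macrophage and monocyte markers summed to 271, 498 and 1087 CPM, and their part in these results was not tested. In treated over untreated stromal-like cells 3 of 12 were higher and 2 lower, beside 5.58% and 4.37% of all genes, and the median was -0.15 against 0.12 over all genes. Hp, which encodes the haemoglobin-binding haptoglobin, was at 1.99 and Hpx, which encodes the haem-binding hemopexin, at -2.63.

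The upstream regulators were counted in the same way, and differences between classes were not tested. In podocyte-like cells 10 of 13 genes of the interleukin-6 family and of the C/EBP and NF-kB regulators were higher in MRL/lpr mice and none lower, beside 8.53% and 5.59% of all genes, with a median log2 ratio of 1.5 against -0.07 over all genes. Il1b, a cytokine gene of myeloid cells, and Cebpd were highest, at 4.3 and 3.71. In the same podocyte-like cells the macrophage and monocyte markers summed to 13.8 CPM in control and 95.5 in MRL/lpr mice, the neutrophil markers to 1.58 and 9.63, and the free-RNA share was 2.78% and 6.53%. List genes were not set against free RNA, and the part of these in the result was not tested. In tubule-like cells 12 of 14 were higher (18.7% of all genes), in endothelial-like 2 of 13 (10.3%), in stromal-like 3 of 14 (14.1%) and in macrophage- and monocyte-like cells 0 of 15 (6.09%). Of the dissociation stress genes, early-response and heat-shock genes that digestion can raise, 7 of 10 were higher and 2 lower in podocyte-like cells of MRL/lpr mice, with a median of 1.49, and none was higher or lower in endothelial-like cells. In treated over untreated stromal-like cells 1 of 15 regulators was higher and 5 were lower, beside 5.58% and 4.37% of all genes, with Osm at 2.05 and Il6 and Socs3, a feedback inhibitor of interleukin-6 signals, at -2.77 and -1.85. Of the dissociation stress genes 8 of 10 were lower there, with a median of -1.70, as were 7 of 10 in podocyte-like and 6 of 10 in endothelial-like cells, beside 4.37%, 1.74% and 3.96% of all genes in the 3 classes. The part of the preparation in these differences was not tested.

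Of the receptors and partners of the members, 6 of 9 were higher and 1 lower in podocyte-like cells of MRL/lpr mice, beside 8.53% and 5.59% of all genes, with a median of 1.43 against -0.07 over all genes. Lrp2, which encodes the tubular uptake receptor megalin, was at 2.25 and Eng, a co-receptor through which LRG1 acts on endothelium, at 1.93. Beside them, the proximal tubule markers, of which Lrp2 is one, summed to 26.8 CPM in control and 153 in MRL/lpr podocyte-like cells, and the endothelial markers to 90.9 and 223, and their part in the result was not tested. In endothelial-like cells, where both were picked after their values were seen, Eng was at 0.60 and Acvrl1, its partner kinase, at 0.43, both under 2-fold, beside the 2-fold difference of Lrg1. In treated over untreated macrophage- and monocyte-like cells 2 of 14 were higher and 4 lower, beside 8.71% and 2.98% of all genes. Trem2, a clusterin-binding lipid receptor, was at 2.30 and Elane, the elastase that SLPI inhibits, at -4.40 (-7.52 to -2.40), from 25 and 2 UMIs. Trem2 is among the leading genes of c16, which went from 433 of 2772 to 4086 of 8437 cells of the class.

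The genes whose levels ran most like those of each member were found over 26 points of a class in a library with at least 50 cells, among 14815 genes, as Pearson correlations of log2 levels plus 1. These points share libraries and depth, so the values are descriptions. S100a8 and S100a9 were most like each other, at 0.99, and then Retnlg at 0.93 and Wfdc21 at 0.92, both neutrophil genes. Cp was most like Col6a3 and Bgn, matrix genes, at 0.96. Saa3 was most like Csf2rb2 and Gm13391 at 0.97, Slpi like Csf2ra at 0.92 and Slc8b1 at 0.91, and Lrg1 like Upp1 at 0.91 and Csf1 at 0.88. Lcn2 was most like Mapk13 at 0.94 and Olfm4 at 0.92, Clu like Adgrg1 at 0.91 and Cyp2j6 at 0.90, Havcr1 like Slc13a2 and Ldc1 at 0.96, and Sox9 like Grem1 at 0.94. Havcr1 and Sox9 had only 158 and 174 UMIs, fewer than the 200 asked of the genes compared with them, so their values rest on few counts.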

How the data were processed

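Droplet single-cell RNA-seq libraries of 3 glomerular preparations were deposited by the authors as matrices of raw UMI counts per gene and barcode, with no normalization and no filter on barcodes. The submitters' processing notes name Cell Ranger, STAR and mm10. The members and gene lists were chosen with earlier results of these data known. Barcodes with at least 500 UMIs and at most 20% mitochondrial UMIs were kept, and the 6.4% of barcodes with the highest Scrublet scores were removed per library as predicted doublets. Cells were clustered with scanpy 1.11.5 (2000 variable genes, 10 principal components, 15 neighbours, Leiden resolution 1.0, no integration) with 79 member and list genes left out. Clusters were named by the share of fixed markers that they carried at least 2-fold above other clusters. That scoring rule, which left a shallow cluster with no marker among its leading genes unnamed, was set after the clusters were seen. Counts were summed per class and library with exact Poisson intervals, and ratios were given exact binomial intervals. A class with no UMI was set at 3 UMIs for ratios. Levels are not scaled for gene length, so they were not compared between genes. To compare shares and cells with a UMI, each cell was thinned to 500 UMIs. Cells with a UMI were picked on the counts before thinning. Beside the members, up to 4 genes of each list were named, those with the 2 highest and 2 lowest log2 ratios, with class markers and the 2 genes most like each member, of which 1 is not reported here. Each list was checked in each class. Only the ratios with their intervals and calls were tested on simulated data, as Poisson counts drawn from the levels of endothelial-like cells. Such draws do not hold the case where few cells carry most UMIs. With 1 library per condition no test was run. There were 12 alternative settings.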

Additional observations from a re-analysis of the deposited data

Results flagged for a closer look

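Lcn2 moved in opposite directions between MRL/lpr and control mice in different classes, at a log2 ratio of 2.06 in endothelial-like cells and -1.21 in neutrophil-like cells, with 1 library per group. The difference between them was not tested. The endothelial-like value rests on 6 and 16 UMIs, at 0.696 and 0.480 times the free-RNA level, and the neutrophil-like value on 186 and 1039 UMIs. Of those 186 control UMIs, 168 were in 3 cells. Without cells of 10 or more Lcn2 UMIs the neutrophil-like log2 ratio was 0.48 (-0.20 to 1.25).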

How the results depend on the processing

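No paired analysis was possible because each condition is 1 library, and no library could be left out. The number of pairs higher in MRL/lpr mice than in control, 26, was 23 to 28 under the other settings and 10 with free RNA subtracted. The number lower in treated mice, 2, was 1 without clusters of low depth, a setting added after seeing the data, and 1 under a mean over cells. With 200 to 3000 genes per cell the log2 ratios of MRL/lpr over control in tubule-like cells turned to 1.72 for Havcr1 and -0.77 for Sox9. With free RNA subtracted they turned to -4.14 for Lrg1 in tubule-like, -2.89 for Cp in endothelial-like and -2.43 for S100a9 in macrophage- and monocyte-like cells, and treated over untreated Saa3 in stromal-like cells to -1.20. That Saa3 ratio was -0.18 with an order-of-magnitude UMI threshold. Lcn2 in neutrophil-like cells turned to 0.48 without cells of 10 or more Lcn2 UMIs, also added after seeing the data. The causes were not tested. Of the other ratios, those that moved beyond their counting interval numbered from 5 with at least 1000 UMIs per barcode to 33 with doublets kept or under a mean over cells. In those last settings 59 and 58 stayed within it. With free RNA subtracted 32 moved, 4 turned and only 29 stayed within it. Control held only 35 neutrophil-like and 152 macrophage- and monocyte-like cells, and these small numbers limit what could be seen in them.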

Other observations

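In the clusters that kept no name, 1 control cell held 1048 of the 1049 S100a9 UMIs. Its neutrophil markers summed to 79524 CPM against 15.3 in the other 147 cells of these clusters. Its podocyte markers summed to 18934 CPM against 16710, and it held 11091 UMIs against a median of 704. The barcode thus carried markers of both classes, and whether it was a mixed droplet was not tested. In treated mice 15 of the 32 Havcr1 UMIs in cells were in macrophage- and monocyte-like cells and 9 in proximal tubule-like cells. These classes held 20396346 and 1755953 UMIs of all genes, so the level was higher in proximal tubule-like cells, at 5.13 CPM.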
